A study of Mus musculus with 6 samples.

Results

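The Cilp Comp Sfrp4 fibroblasts are mesenchymal cells of the mouse sciatic nerve that were chosen by counts of their own transcripts. In the 4 libraries collected 2 months after surgery, a barcode counted as a cell with at least 1000 unique molecular identifiers (UMIs, each standing for 1 captured transcript), of which under 10% were mitochondrial. A cell passed the fibroblast gate with at least 2 UMIs of Pdgfra, Lum and Serpinf1 together and none of Sox10, Cdh5 or Myh11, which mark Schwann, endothelial and smooth muscle cells. A gate cell was a member where Cilp, Comp, Sfrp4 and Itgbl1 together gave at least 3 UMIs and more than each of 3 other sums of 4 genes. Those sums defined, in the same way, a Pi16 class (Pi16, Dpp4, Sema3c and Smpd3), a chemokine class (Cxcl13, Cxcl14, Ccl19 and Fgf10) and an endoneurial class (Angptl7, Sox9, Osr2 and Abca6). The rule found 1462 members among 5094 gate cells and 10042 cells of the 4 libraries, and 11524 cells were counted over all 5 libraries analysed. The Pi16 class held 1212 cells, the chemokine class 646 and the endoneurial class 903, and 871 gate cells fell in no class.

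Nerves came from C57BL/6J wild-type mice of both sexes that had partial sciatic nerve ligation (PSNL), in which a suture ties off part of the nerve, or sham surgery. Each library pooled 4 ipsilateral nerves, trimmed to a short piece around the lesion, and each of the 2 batches gave 1 sham and 1 PSNL library at 2 months. Sorting kept single nucleated live events without myelin, CD45 or Ter119, which removes most leukocytes and red cell precursors, and libraries were made with the 10X 3′ kit, version 3. A PSNL library at 5 days, from batch 2, is used for side values only, and its sham counterpart is not analysed here. With 2 libraries a group, no p-value below measures the spread between animals. Those of PSNL against sham measure the spread between pools of nerves, less the batch where it was a block. Those of the class contrasts and the interaction, fitted with the library as a block, measure how class differences varied between libraries.

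Total depth ran from 4099617 to 17481607 UMIs per library at 2 months, and no pair of these libraries shared more than 1 cell barcode. The sham library of batch 1 stood apart: it held 544 cells, against 2327 to 3777 in the other 3, and 487 of them passed the fibroblast gate. Members numbered 136 in sham and 399 in PSNL of batch 1 and 454 and 473 in batch 2, at median depths of 5445.5, 2517, 3668 and 5411 UMIs.

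The 4 genes that chose the members encode secreted proteins. Cilp is a matrix protein first known from the middle layer of cartilage and restrains growth factors of the TGF-beta and IGF families. Comp is a pentameric protein of cartilage and tendon that binds collagen fibrils. Sfrp4 resembles the Wnt-binding part of Frizzled receptors and holds Wnt ligands outside the cell, and Itgbl1 is a secreted relative of the integrin beta chains. Fibroblasts of the nerve sheath lay down the collagen and elastic tissue of the epineurium, whereas those inside the fascicles border axons and Schwann cells.

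On GRCm38, the GENCODE annotation places Cilp at chr9:65265180-65280605, plus strand, Comp at chr8:70373558-70382066, plus strand, Sfrp4 at chr13:19623104-19632994, plus strand and Itgbl1 at chr14:123659971-123975618, plus strand. All are protein-coding genes, and Itgbl1 overlaps the short predicted gene Gm9308 on the other strand and Gm25272 on its own. Levels are given in CPM, the UMIs of a gene per 1000000 UMIs of the summed cells of a class in a library. In members, Cilp stood at 1447 CPM in sham and 1492 in PSNL of batch 1 and 1055 and 1265 in batch 2. In the 3 other classes it reached 225 CPM at most. Comp stood at 1279.7 CPM in sham and 679 in PSNL of batch 1 and 419.8 and 391 in batch 2. The sham library of batch 1 was the highest of the 4 for Comp, and the other classes reached 72.0 CPM. Sfrp4 stood at 6969 CPM in sham and 5528 in PSNL of batch 1 and 5414 and 5208 in batch 2, and Itgbl1 at 444 CPM in sham and 325 in PSNL of batch 1 and 359 and 439.6 in batch 2. For Sfrp4 the Pi16 class came next, at 544 ± 86.1 CPM (SD, n = 4 libraries), and for Cilp the chemokine class, at 175 ± 68.6 CPM. Because the rule used these counts, their differences between classes are a description with no test.

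**Figure D1:**
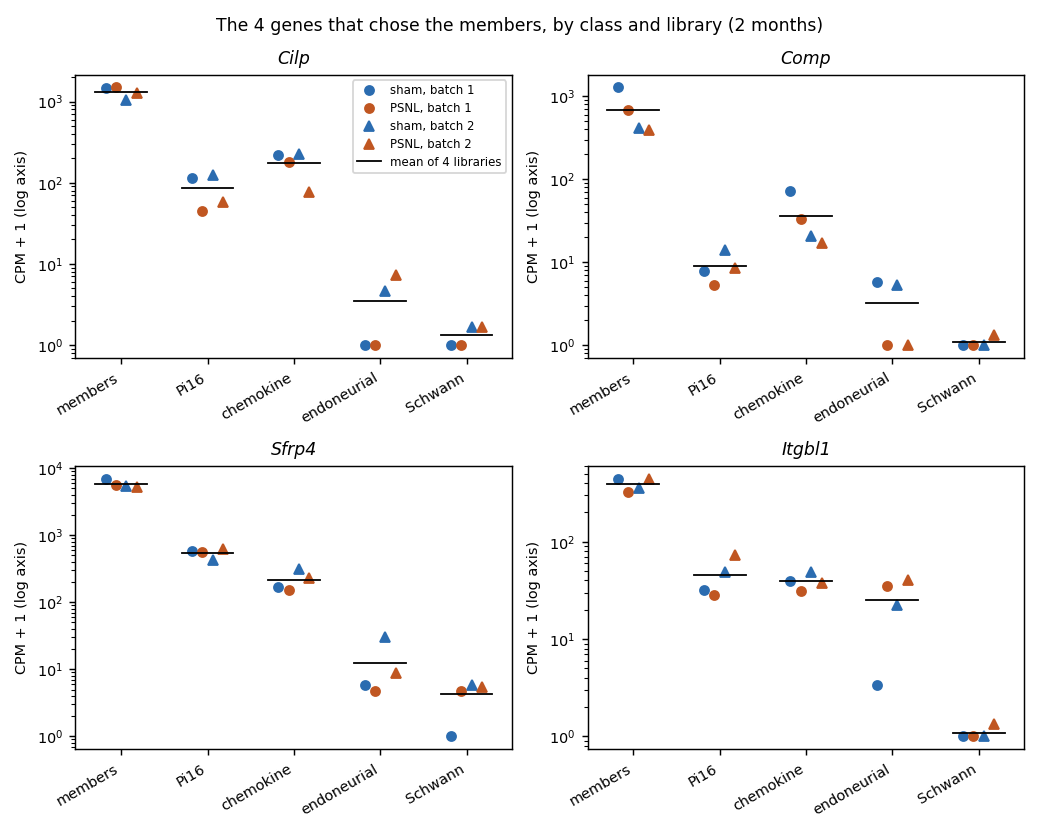
Level of Cilp, Comp, Sfrp4 and Itgbl1 (CPM plus 1, log axis) in the summed cells of each class. Circles are batch 1 and triangles batch 2, blue is sham and orange PSNL at 2 months, and a bar marks the mean of 4 libraries. Members were chosen on these genes, and for Sfrp4 the class next to members is the Pi16 class, at 422 to 621 CPM.

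The 4 genes did not contribute equally. Sfrp4 gave the most UMIs of the 4 in 1078 members, Cilp in 273, Comp in 35 and Itgbl1 in 32, and 44 members were tied. Only 167 members held a UMI of all 4 genes, 534 held 3 of them, 545 held 2 and 216 held 1. Sfrp4 was counted in 92.7% of members, Cilp in 67.0%, Itgbl1 in 55.7% and Comp in 29.3%. Shares of cells with a UMI depend on depth, so every cell was also thinned to 1000 UMIs. Sfrp4 was then counted in 84.4% of members, 31.9% of the Pi16 class and 0.26% of Schwann cells, which should lack it. Comp was counted in 19.8%, 0.743% and 0.0651% of the same cells. Schwann cells here held at least 1 UMI of Sox10 and none of Pdgfra, Lum or Serpinf1, so the gates already set them apart from members. Library medians ran from 2517 to 5445.5 UMIs in members and from 2288 to 2984 in Schwann cells before thinning, the last in sham of batch 1 with only 5 Schwann cells. Comp differed between libraries: before thinning it was counted in 55.9% of members in sham and 27.3% in PSNL of batch 1 and 25.6% and 26.8% in batch 2, and after thinning in 38.2%, 21.6%, 17.6% and 15.2%. The sham library of batch 1 was the highest both ways, at a median depth close to that of PSNL in batch 2. By its counts this is a population led by Sfrp4.

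The margin of the rule was wide for most members. The median sum of the 4 genes was 43.5 in sham and 17 in PSNL of batch 1 and 21 and 27 in batch 2. Just inside the threshold lay 50 members with a sum of exactly 3 and 35 members ahead of their next sum by 1 UMI. Just outside lay 49 gate cells whose leading sum was 2 and 44 that tied with another class, and 597 gate cells reached 3 but were behind another sum.

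Members led by Cilp and members led by Sfrp4 differed in level for some genes the rule did not use, given here with no test because the split was cut from the same cells. Cilp led in only 19 members in sham of batch 1, so low levels there rest on few UMIs. Tnmd, a membrane protein of tendon cells, stood at 0 CPM in sham and 35.2 in PSNL of batch 1 and 112 and 157 in batch 2 in members led by Cilp. In members led by Sfrp4 it stood at 0 CPM in sham and 3.93 in PSNL of batch 1 and 5.91 and 23.2 in batch 2, lower than in those led by Cilp in the 3 libraries with any UMI. Gpx3, a secreted glutathione peroxidase, stood at 4093 CPM in sham and 5980.1 in PSNL of batch 1 and 3459.8 and 5132 in batch 2 in members led by Cilp and at 859 CPM in sham and 1796 in PSNL of batch 1 and 676 and 2399.6 in batch 2 in those led by Sfrp4. Adm, the vasodilator peptide adrenomedullin, went the other way in all 4 libraries, at 47.7 CPM in sham and 97.7 in PSNL of batch 1 and 98.1 and 51.0 in batch 2 where Cilp led and 527 CPM in sham and 348 in PSNL of batch 1 and 549.5 and 153 in batch 2 where Sfrp4 led.

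Genes of most fibroblasts were high in members: the summed level of Col1a1, Col1a2, Col3a1, Dcn, Gsn, Mfap5, Pdpn and Thy1 ran from 69801 to 79517 CPM, against 2283 to 8943 in Schwann cells. The lowest Schwann value is that of sham in batch 1, with 5 such cells. Because the gates define both groups, contrasts of members with Schwann cells are a description and no support. The summed level of 5 Schwann cell markers was 51.3 to 294 CPM in members and 13840 to 23359 in Schwann cells, and was as high in the other classes, at 60.2 to 311. The 5 leukocyte markers summed to 2.07 to 9.19 CPM. The 7 chondrocyte markers, among them Acan and Col2a1, summed to 1.35 to 2.70 CPM, with Col9a1, Col11a2 and Snorc at 0 in members. Of 5 tendon cell markers, which summed to 89.7 to 441 CPM in members, Scx, the transcription factor that defines tendon cells, had 0 UMIs in 3 libraries and 1.10 CPM in the PSNL library of batch 2. Thbs4, a matrix protein of tendon and muscle, carried most of that sum at 129 CPM in sham and 144 in PSNL of batch 1 and 65.3 and 377 in batch 2, and was higher in the endoneurial class, at 461 to 881 CPM. The 6 endothelial markers summed to 141 to 537 CPM, mostly Pecam1, which was highest in the sham library of batch 1 in every class; Cldn5 was at 0 in 3 libraries. The part of RNA from other cells in the results below was not tested beyond these values.

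Which genes set these fibroblasts apart from the other 3 classes was asked with 1 fit across all genes, on UMI sums per library and class with the library as a block. Members were higher than all 3 classes for 223 of 10378 genes tested (2.15%) and lower for 71 (0.684%), at an adjusted p below 0.05 in each of the 3 contrasts. The 3 contrasts share the member sums. All classes were cut from the same cells by 22 genes, which are left out of these counts, and a gene that varies with those 22 from cell to cell differs by how the classes were built, so the p-values describe how evenly a difference recurred over 4 libraries. Against single classes, 1224 genes were higher and 1162 lower than in the Pi16 class (11.8% and 11.2%), 500 and 452 against the chemokine class (4.82% and 4.36%), and 1392 and 1305 against the endoneurial class (13.4% and 12.6%). The median log2 difference of all genes tested was within 0.0133 of 0 in each contrast. Without the library of PSNL in batch 1 the counts higher and lower than all 3 were 171 and 40, without that of PSNL in batch 2 they were 159 and 42, without sham of batch 2 they were 164 and 48, and without sham of batch 1 they were 235 and 64. With every cell thinned to 1000 UMIs before summing they were 105 and 25.

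Fmod, fibromodulin, a small leucine-rich proteoglycan that binds collagen fibrils, had the largest margin. It stood at 251 CPM in sham and 150.2 in PSNL of batch 1 and 134 and 221 in batch 2 in members. No other class exceeded 3.57 CPM in any library, and the endoneurial class held 0 UMIs, so that members were at least 227-fold higher than that class, taking 3 counts over the class as its floor. 1500015O10Rik, which encodes the secreted peptide augurin (Ecrg4), stood at 276 CPM in sham and 174 in PSNL of batch 1 and 298 and 222 in batch 2, with the other classes at 0 to 14.5 CPM. Its log2 difference was 4.93 ± 0.23 (SE) against the chemokine class (edgeR, adjusted p = 6.35e-19). Mfap4, a glycoprotein that binds elastic microfibrils, stood at 166 CPM in sham and 322 in PSNL of batch 1 and 285 and 353 in batch 2. The other classes stood at 0 to 30.3 CPM, and the endoneurial class, with 0 UMIs, was at least 338-fold lower. For each of these 3 genes the lowest member library lay far above the highest library of any other class.

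Lepr, Kdr and Kcnma1 encode proteins of the cell surface. Lepr, the leptin receptor, stood at 293 CPM in sham and 245 in PSNL of batch 1 and 122 and 182 in batch 2, with the other classes at 0 to 50.1 CPM (log2 difference 2.79 ± 0.46 (SE), adjusted p = 0.00348 against the chemokine class). Kdr, the main VEGF receptor of endothelial cells, stood at 9.44 CPM in sham and 19.8 in PSNL of batch 1 and 11.4 and 28.7 in batch 2, on 129 UMIs in all members. The Pi16 class held 11 Kdr UMIs, the chemokine class 1 and the endoneurial class 0, and members were at least 20.8-fold higher than the last. Of the other endothelial markers, Pecam1 was far above Kdr in members, at 516 CPM in sham and 137 in PSNL of batch 1 and 143 and 106 in batch 2, within the range of the other classes, 94.1 to 743 CPM. Egfl7 stood at 0 to 5.40 CPM in members, Flt1 at 2.59 to 4.41, Emcn at 1.10 to 5.39 and Cldn5 at 0 to 0.368. Kdr was highest in the PSNL library of batch 2, where Pecam1 was lowest. After thinning, Kdr was counted in 1.50% of members and 0% of Schwann cells. Kcnma1, the pore of a calcium-activated potassium channel, stood at 10.8 CPM in sham and 12.6 in PSNL of batch 1 and 17.1 and 43.0 in batch 2, highest in the PSNL library of batch 2, with the other classes at 0 to 2.57 CPM.

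Other genes with the largest margins encode secreted proteins. Ccn2 (CTGF), a matricellular protein induced by TGF-beta, stood at 255 CPM in sham and 369.8 in PSNL of batch 1 and 281 and 472 in batch 2, and the other classes at 11.9 to 75.9 CPM. Its log2 difference against the chemokine class was 2.96 ± 0.31 (SE), with an adjusted p of 5.89e-05. Clu, the extracellular chaperone clusterin, averaged 109 ± 24.4 CPM (SD, n = 4) against class means of 16, 16.8 and 8.48 in the Pi16, chemokine and endoneurial classes. Ccdc3 averaged 130.5 ± 31.0 CPM against 13.4, 13.1 and 1.24. Itih2, a hyaluronan-binding inter-alpha-trypsin inhibitor chain, averaged 46.3 ± 15.3 CPM against 0.914, 2.69 and 6.26, and Egfl6 25.5 ± 9.60 CPM against 1.93, 0.852 and 2.40. All 11 genes described so far, from Fmod to Egfl6, were above the other classes with no overlap between libraries, which 1.18% of all genes tested showed. They were picked for the largest margins on the same sums, so the lack of overlap follows from that choice and adds no support. Fmod, Kdr, Kcnma1 and Egfl6 stood at 4.84 CPM or less in every other sum and passed the filter on low counts through the member sums.

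The genes lower in members than in all 3 classes included a laminin chain, a fibulin and several enzymes and receptors. Lamb1, the laminin beta 1 chain of basement membranes, stood at 16.2 CPM in sham and 52.2 in PSNL of batch 1 and 40.4 and 58.1 in batch 2, and no other class was below 84.8 CPM. Efemp1, fibulin 3, stood at 210.4 CPM in sham and 184 in PSNL of batch 1 and 254 and 198 in batch 2, with the other classes at 535 to 848 CPM and a log2 difference of -1.44 ± 0.12 (SE) against the chemokine class (adjusted p = 8.23e-12). For both genes all member libraries lay below all others. Ptx3, a soluble pattern recognition protein, averaged 13.7 ± 4.68 CPM (SD, n = 4) against 64.2, 78.0 and 65.9 in the Pi16, chemokine and endoneurial classes. Calcrl, the receptor chain shared by CGRP and adrenomedullin, averaged 8.15 ± 4.90 CPM against 97.8, 30.3 and 91.6. Adora2b, an adenosine receptor, averaged 2.66 ± 1.85 CPM against 11.5, 8.43 and 11.8, with the sums overlapping and an adjusted p of 0.0433 against the chemokine class. That call for Adora2b was lost in 9 of 15 alternatives (adjusted p from 0.00517 to 0.515), among them leaving out sham of batch 1, sham of batch 2 or PSNL of batch 2, and DESeq2.

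Pla1a, a phospholipase for phosphatidylserine, averaged 5.34 ± 1.77 CPM (SD, n = 4), against 464, 42.0 and 44.4 in the Pi16, chemokine and endoneurial classes. Efhd1, a calcium-binding mitochondrial protein, averaged 10.6 ± 4.76 CPM against 316, 30.5 and 118, Clic6 2.81 ± 2.46 CPM against 38.2, 15.4 and 41.9, and Sytl2 1.35 ± 1.10 CPM against 60.8, 17 and 6.15. Nav3 averaged 1.58 ± 1.04 CPM against 28.0, 19.0 and 10.3, and Gm43343, a predicted gene on the same strand as Apbb2 and overlapping it, 5.59 ± 3.33 CPM against 21.8, 15.7 and 15.4. Slc38a4, an amino acid transporter, had 1 UMI in all members, against class means of 10.4, 4.28 and 14.0 CPM. Of these 12 lower genes, 6 were below every other sum with no overlap, which 0.482% of all genes tested showed. They too were picked for their margins on the same sums, so this count adds no support.

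**Figure D2:**
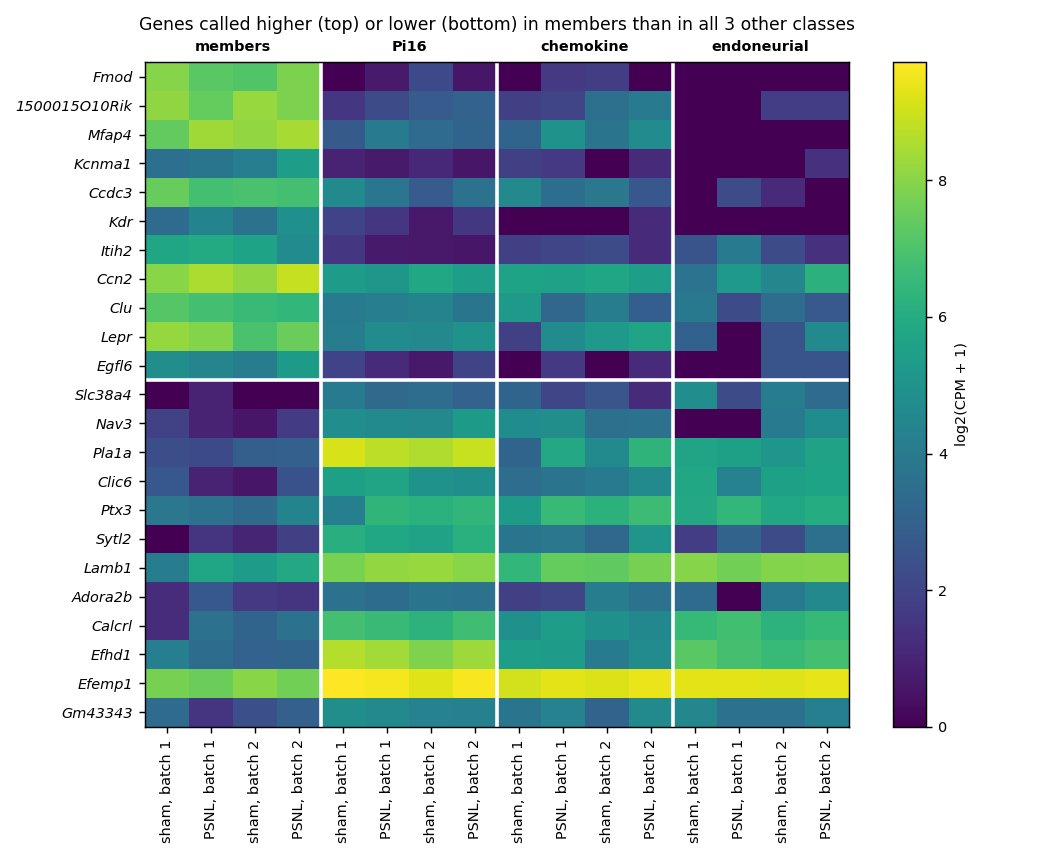
Level, as log2(CPM + 1), of 11 genes with the largest margins above (top) and 12 below (bottom) all 3 other classes. Each column is 1 library in 1 class, in the order sham and PSNL of batch 1 and of batch 2. Fmod, 1500015O10Rik and Mfap4 are bright in the 4 member columns, and Lamb1 and Efemp1 are darker there than in all 12 others.

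Small leucine-rich proteoglycans, which coat collagen fibrils and set their spacing, were the first matrix list counted. Of 8 tested, 5 were higher in members than in all 3 classes and 0 lower, and the median log2 difference of the list was 1.13 against the Pi16 class, 1.72 against the chemokine class and 2.03 against the endoneurial class. Over all genes tested, 2.15% were higher than in all 3 classes and 0.684% lower, shares that belong beside each list count below. Ogn, osteoglycin, stood at 4569 CPM in sham and 4556 in PSNL of batch 1 and 4412 and 3668 in batch 2, against class means of 2428, 1469 and 688 in the Pi16, chemokine and endoneurial classes. Bgn, biglycan, averaged 1242 ± 231 CPM (SD, n = 4) against 197, 749 and 347. Prelp averaged 349.8 ± 62.7 CPM against 139.7, 105 and 282, where the endoneurial class came close (log2 difference 0.36 ± 0.12 (SE), adjusted p = 0.0241). Omd, osteomodulin, averaged 90.4 ± 26.6 CPM against 49.1, 26.7 and 18.7, and Fmod is given above. Decorin (Dcn), of the same family, went the other way against the endoneurial class, at 28622 ± 4413 CPM in members and 47687 ± 8549 CPM there.

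A list of cartilage, tendon and ligament matrix proteins held 14 genes, of which 8 were tested and 5 called higher, 4 of them the same proteoglycans. The fifth was Prg4, lubricin, the lubricant of joint and tendon surfaces, at 40.5 CPM in sham and 36.9 in PSNL of batch 1 and 16.1 and 41.5 in batch 2 and class means of 16.4, 9.52 and 1.14. Aspn, asporin, averaged 563 ± 147 CPM against 412, 140.0 and 12.4, higher than the chemokine class (adjusted p = 0.000661) but not past the threshold against the Pi16 class (adjusted p = 0.142). Thbs4 and Matn2, of the same list, were lower than in the endoneurial class, with Matn2 at 86.7 ± 9.63 CPM against 537 ± 91.8 CPM.

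Elastic fibre genes formed the next group. Of 17 tested, 6 were higher than in all 3 classes (Eln, Fbln1, Fbln2, Mfap4, Emilin1 and Lox) and Efemp1 was lower. Eln, the elastin precursor, stood at 473 CPM in sham and 417 in PSNL of batch 1 and 470.1 and 683 in batch 2, and the other classes averaged 198, 126 and 16.7 CPM. Lox, the enzyme that crosslinks elastin and collagen, stood at 329 CPM in sham and 207 in PSNL of batch 1 and 323 and 322 in batch 2, and the other classes averaged 75.7, 113 and 5.27. Fbln1, fibulin 1, averaged 1037 ± 217 CPM (SD, n = 4) against 271, 770.4 and 27.9, with the chemokine class nearest (log2 difference 0.54 ± 0.14 (SE)). The list's median was 0.43, 0.54 and 1.52 against the Pi16, chemokine and endoneurial classes. Collagen chains were mixed: 3 of 23 tested were higher (Col1a2, Col12a1 and Col16a1) and Col5a3 was lower. Against the chemokine class alone 6 chains were higher and 11 lower, with a median of −0.48, where 4.82% and 4.36% of all genes tested were higher and lower. Col12a1, a chain of a fibril-associated collagen, stood at 155 CPM in sham and 91.8 in PSNL of batch 1 and 38.4 and 142 in batch 2, with the other classes averaging 25.4, 25.3 and 2.79. Col5a3 averaged 117 ± 32.9 CPM against 244, 490.1 and 249.

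Sfrp4 is an antagonist of Wnt signalling, so other parts of that pathway were counted. Of 17 ligands and receptors tested, 3 were higher than in all 3 classes and 0 lower. Wnt9a, a ligand, stood at 35.1 CPM in sham and 31.5 in PSNL of batch 1 and 19.7 and 26.5 in batch 2, against class means of 17.5, 3.52 and 5.87. Lrp6, the co-receptor of canonical signalling, averaged 283 ± 39.5 CPM (SD, n = 4) against 131, 164 and 90.1, and Fzd1 averaged 73.7 ± 21.9 CPM against 51.9, 40.7 and 12.9. Of 4 secreted inhibitors tested besides Sfrp4, Dkk3 was higher than in all 3 classes, at 65.3 ± 23.8 CPM against 12.5, 14.0 and 16.3. Sfrp1 averaged 382 ± 93.5 CPM and did not separate from the chemokine class at 415 ± 75.8 CPM (log2 difference -0.02 ± 0.24 (SE), adjusted p = 0.981). None of 5 feedback targets of the pathway was called against all 3 classes, and their median log2 difference was 0.742, −0.00093 and −0.13 against the Pi16, chemokine and endoneurial classes.

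The TGF-beta family showed calls among ligands, carriers, antagonists and targets. Of 20 ligands, latent binding proteins and receptors tested, 5 were higher in members than in all 3 classes (Tgfb3, Ltbp3, Ltbp4, Inhbb and Bmp4) and Ltbp1 was lower. Tgfb3, a ligand, stood at 91.7 CPM in sham and 111 in PSNL of batch 1 and 65.3 and 159.9 in batch 2, against class means of 34.9, 33.4 and 10.2. Ltbp4, which tethers latent TGF-beta to elastic fibres, stood at 1323 CPM in sham and 1724 in PSNL of batch 1 and 887 and 683 in batch 2, against 469.7, 546 and 237. Ltbp1, its relative on fibronectin and microfibrils, averaged 61.9 ± 9.77 CPM (SD, n = 4) against 274, 105 and 244. Of 11 extracellular inhibitors and targets tested, 5 were higher, among them Chrdl1, Skil, Tgfbi and Ccn2, and 0 lower. Chrdl1, a BMP antagonist, stood at 519 CPM in sham and 313 in PSNL of batch 1 and 380.4 and 244 in batch 2, against 94.3, 43.6 and 3.38. Tgfbi, a secreted adhesion protein induced by TGF-beta, averaged 997 ± 190.5 CPM against 126, 179 and 583.

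Among 21 growth factors, receptors and binding proteins tested, 4 were higher and 0 lower. Igfbp6, which binds IGF2, stood at 10723 CPM in sham and 6669 in PSNL of batch 1 and 7126 and 5978 in batch 2, against class means of 3557, 1219 and 1373. Angptl1, a secreted angiopoietin relative, stood at 679.6 CPM in sham and 895 in PSNL of batch 1 and 974 and 1332 in batch 2, against 179.7, 219 and 66.3, and Pdgfrl averaged 124 ± 46.2 CPM (SD, n = 4) against 7.39, 37.7 and 50.0. Fgf9 averaged 27.5 ± 18.6 CPM against 9.16, 2.03 and 3.55, highest in the PSNL library of batch 2. Of 19 transcription factors of limb and trunk mesenchyme tested, Tcf7l2 and Foxp1 were higher and Ebf2 lower. Tcf7l2, a nuclear partner of beta-catenin, averaged 483 ± 42.9 CPM against 252, 308 and 187, and Ebf2 139 ± 33.5 CPM against 337, 212 and 306.

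Of 18 matrix proteases and inhibitors tested, Adamts2, which trims procollagen, was higher and Adamts15 lower. Of 10 chemokine, cytokine and complement genes, Ccl11 was lower than in all 3 classes. Ccl11, eotaxin, averaged 308 ± 105 CPM (SD, n = 4) against 576, 755 and 2397. Of 6 genes of activated fibroblasts, 0 were called against all 3 classes, with Acta2, smooth muscle actin, at 4.05 to 23.9 CPM. The 7 genes of outer, epineurial fibroblasts split by the class compared: 6 were lower than in the Pi16 class, and 6 were higher than in the endoneurial class. Over all genes tested these shares were 11.2% and 13.4%. Igfbp6, of this list, was higher than in all 3 classes. Immediate-early and heat shock genes, which also respond to tissue dissociation, also split. Of 10 tested, 0 passed the test against the Pi16 class, 7 were lower than in the chemokine class and 9 lower than in the endoneurial class. Over all genes tested, 4.36% were lower than in the chemokine class and 12.6% lower than in the endoneurial class. The summed level of the immediate-early and heat shock genes was 4171 to 5182 CPM in members and 10320 to 22156 in the endoneurial class, and its part in the other differences was not tested.

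**Figure D3:**
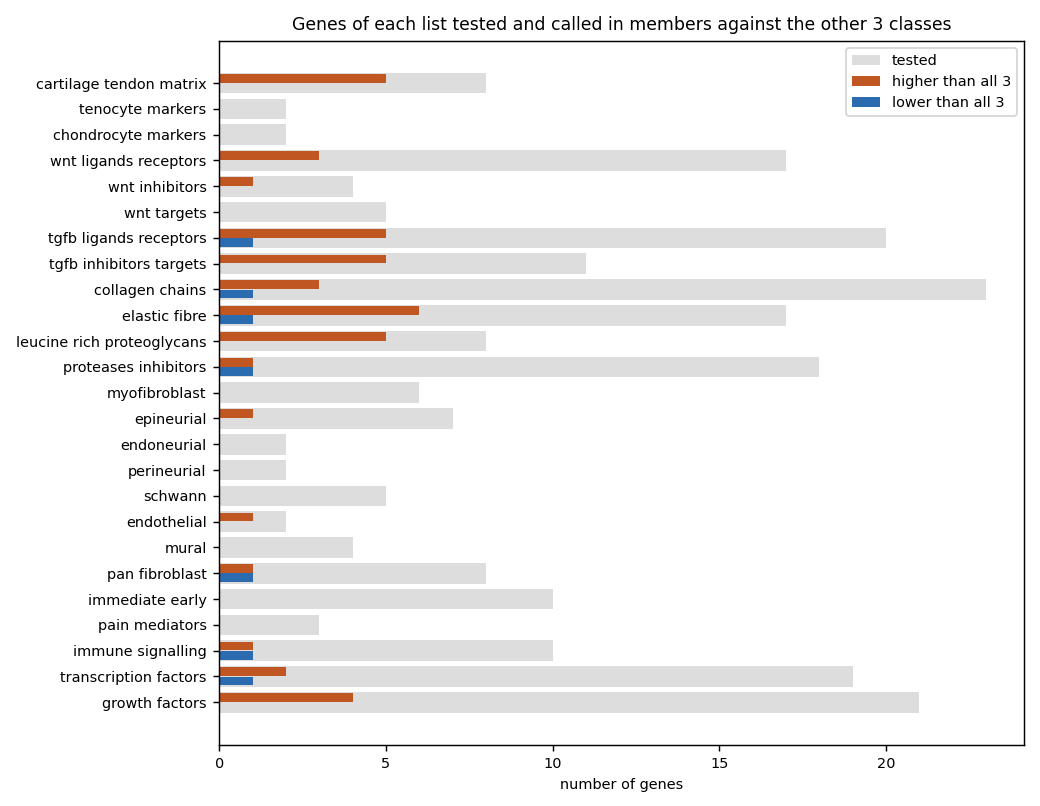
Number of genes in each list that were tested (grey), higher in members than in all 3 other classes (orange) and lower than in all 3 (blue). Among all genes tested these shares were 2.15% and 0.684%, and the longest orange bars are elastic fibre, cartilage and tendon matrix, leucine-rich proteoglycans and both TGF-beta lists.

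Whether the injury changed the share of these cells was asked over libraries. Members made up 27.9% of gate cells in sham (exact binomial 95% interval 24.0 to 32.1) and 28.2% in PSNL (25.8 to 30.6) of batch 1, and 25.8% (23.8 to 27.9) and 33.1% (30.6 to 35.6) in batch 2. The intervals cover counting error only. The mean was 30.6% after PSNL and 26.9% after sham, a difference of 3.74 percentage points with a two-sided exact permutation p of 0.33, the smallest that 2 against 2 libraries allow. The difference was 0.232 points in batch 1, where it turned negative with cells of at least 2000 UMIs (−1.90 points), and 7.24 points in batch 2. Because cells were sorted and captured in unequal numbers, a change in the number of members in the nerve cannot be read from these shares.

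Within members, PSNL was compared with sham over the 4 libraries, for 10449 genes. Only the 4 genes of the member sum were left out of this fit, so that 15 of the other 18 genes of the rule were among those tested. With no batch term, 0 genes passed an adjusted p of 0.05 in edgeR, 200 were higher at an unadjusted p below 0.05 (1.91%) and 184 lower (1.76%), and DESeq2 called 4 higher and 1 lower. The labels pair the sham and PSNL libraries of a batch, and with the batch as a block 19 genes were higher (0.182%) and 13 lower (0.124%). With 4 libraries that fit leaves 1 residual degree of freedom per gene. Its SEs and p-values thus rest mostly on variance borrowed from other genes and do not stand for wide replication. The calls with the block include Lum, a gate gene, and Cxcl13, of the chemokine sum, whose levels in members the rule itself bears on, so both are given below as levels with no test. With all genes of the rule set aside, 18 of 10434 were higher (0.173%) and 12 lower (0.115%). All 30 changed the same way in both batches, which selection by the fit with the block itself favours. Leaving out 1 library without the block gave 17 higher and 9 lower (sham of batch 1), 2 and 0 (PSNL of batch 1), 85 and 104 (sham of batch 2) or 1 and 0 (PSNL of batch 2). The genes described next were picked after their values were seen, from those 30. Each was short of the threshold in the edgeR fit above with no batch term, though some alternatives without the block called genes among them.

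Prss23, a secreted serine protease, stood at 56.6 CPM in sham and 275 in PSNL of batch 1 and 70.5 and 315 in batch 2, with both PSNL libraries above both sham libraries. Its log2 difference with the block was 2.13 ± 0.24 (SE), adjusted p = 0.000166, and the adjusted p without the block was 0.0665. Several of the higher calls encode proteins of the matrix. Postn, periostin, a matricellular protein of healing tissue, stood at 128 CPM in sham and 411 in PSNL of batch 1 and 100.02 and 279 in batch 2 (log2 difference 1.50 ± 0.23 (SE), adjusted p = 0.00185 with the block). Mgp, matrix Gla protein, an inhibitor of calcification, stood at 1013 CPM in sham and 2656 in PSNL of batch 1 and 1595 and 4079.9 in batch 2, and Col14a1 at 363 CPM in sham and 666 in PSNL of batch 1 and 378 and 998 in batch 2. Mmp14, a membrane-bound collagenase, stood at 41.8 CPM in sham and 255 in PSNL of batch 1 and 125 and 325 in batch 2, and Sfrp2, another secreted Frizzled-related protein, at 701 CPM in sham and 1407 in PSNL of batch 1 and 845 and 1892 in batch 2. Gpx3 stood at 1277 CPM in sham and 3100.4 in PSNL of batch 1 and 1156 and 3151 in batch 2. For each of these genes the lower PSNL library exceeded the higher sham library. Matn4, matrilin 4, had 0 and 3 UMIs in the 2 sham libraries and 29 and 50 after PSNL, and Fbn2, Hmcn1, C1qtnf3, Prlr, Mlana, Pcdh7, Lgr4, Epha3 and Arid5b were also called higher. Lum, the proteoglycan lumican, on which cells were gated, stood at 491 CPM in sham and 1549 in PSNL of batch 1 and 471 and 1213 in batch 2.

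Lower calls with the block included an enzyme, an opioid precursor and a receptor. Adh1, an alcohol and retinol dehydrogenase, stood at 193 CPM in sham and 54.9 in PSNL of batch 1 and 90.7 and 30.5 in batch 2 (log2 difference -1.77 ± 0.24 (SE), adjusted p = 0.00109). Penk, the enkephalin precursor, stood at 587 CPM in sham and 295 in PSNL of batch 1 and 642 and 315 in batch 2, and Adm, adrenomedullin, at 450.4 CPM in sham and 298 in PSNL of batch 1 and 465 and 130.5 in batch 2. Pcolce2, which enhances procollagen trimming, stood at 500.3 CPM in sham and 206 in PSNL of batch 1 and 429 and 254 in batch 2, and Procr, the protein C receptor, at 93.0 CPM in sham and 40.5 in PSNL of batch 1 and 104 and 47.8 in batch 2. In each of these 5 genes both sham libraries were above both PSNL libraries. Cxcl13, a B cell chemokine whose UMIs counted against membership, stood at 107 CPM in sham and 11.7 in PSNL of batch 1 and 44.6 and 9.92 in batch 2.

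Which of the 4 genes led, read from the same counts that chose the members and at the unequal depths given above, differed between libraries: Cilp led in 14.0% of members in sham and 22.3% in PSNL of batch 1, and in 15.2% and 20.3% in batch 2. In members led by Cilp, Prss23 stood at 28.6 CPM in sham and 589.8 in PSNL of batch 1 and 91.0 and 495 in batch 2. In members led by Sfrp4 it stood at 64.1 CPM in sham and 150.5 in PSNL of batch 1 and 64.3 and 257 in batch 2, above those led by Cilp in sham of batch 1 and below them in the other 3 libraries. The Cilp-led value in sham of batch 1 comes from only 19 cells and few UMIs. Mgp stood at 1240.2 CPM in sham and 5175 in PSNL of batch 1 and 3117 and 6471 in batch 2 where Cilp led and at 802 CPM in sham and 1792 in PSNL of batch 1 and 1207 and 3296 in batch 2 where Sfrp4 led, lower in all 4 libraries. The part of this make-up in the PSNL differences was not tested. The summed tendon markers differed too, at 131 CPM in sham and 169 in PSNL of batch 1 and 89.7 and 441 in batch 2, and their part in the differences was not tested.

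By list, calls with the block were few. One gene each was higher among 24 collagen chains (Col14a1), 17 elastic fibre genes (Fbn2), 19 proteases and inhibitors (Mmp14), 9 cartilage and tendon matrix genes (Matn4), 4 Wnt inhibitors (Sfrp2), 11 TGF-beta inhibitors and targets and 7 genes of activated fibroblasts (Postn in both), and Pcolce2 was lower among 7 epineurial genes. Over all genes tested, 0.182% were higher and 0.124% lower. The median log2 difference was 0.20 for collagens, −0.04 for elastic fibre genes, −0.41 for TGF-beta inhibitors and targets and 0.80 for genes of activated fibroblasts, against −0.00030 over all genes tested. None of the 11 genes from Fmod to Egfl6 described above was among the 30, with Fmod at 251 CPM in sham and 150.2 in PSNL of batch 1 and 134 and 221 in batch 2 and Kdr at 9.44 CPM in sham and 19.8 in PSNL of batch 1 and 11.4 and 28.7 in batch 2.

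**Figure D4:**
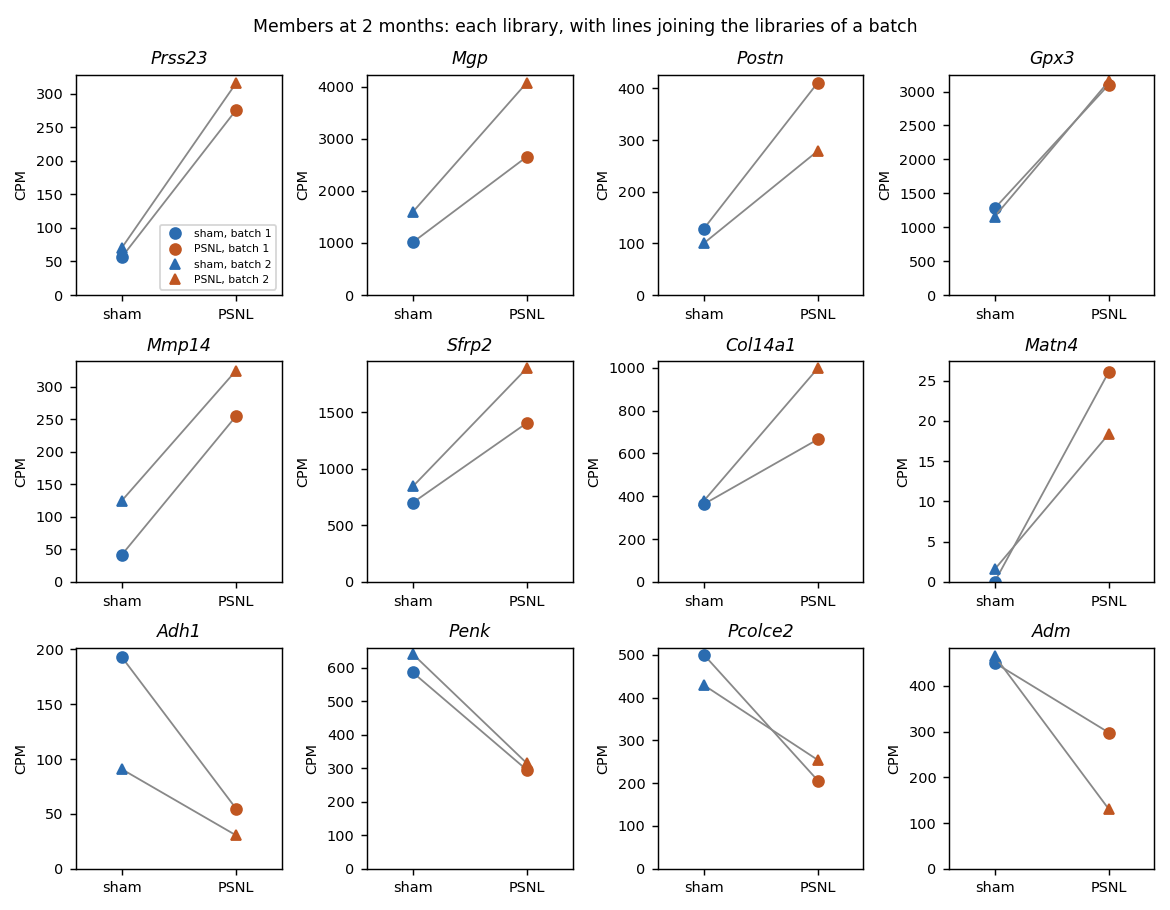
Level in members (CPM, axes from 0) of 12 genes called with the batch as a block, for each library at 2 months. Circles are batch 1 and triangles batch 2, and a line joins the sham and PSNL library of a batch. All lines rise in the first 8 panels (Prss23 to Matn4) and fall in the last 4 (Adh1 to Adm).

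Whether the PSNL difference in members was unlike that in the other classes was tested by an interaction term, the PSNL effect in members minus the mean effect in the other 3. It was higher in members for 3 genes of 10378 (0.0289%) and lower for 4 (0.0385%). For Prss23 it was 1.58 ± 0.30 (SE), adjusted p = 0.0325 (log2). Pi16 class cells already held Prss23 at 381 CPM in sham and 394 in PSNL of batch 1 and 305 and 432 in batch 2, above the members in every library. For Mmp14 the interaction was 1.07 ± 0.23 (SE), adjusted p = 0.0358, with the Pi16 class at 155 CPM in sham and 376 in PSNL of batch 1 and 382 and 485 in batch 2. The sham members thus stood below the Pi16 class for both proteases, and the PSNL members stood nearer to it as a ratio. The mitochondrial tRNA mt-Ts2 was the third, at 1.52 ± 0.30 (SE), adjusted p = 0.0225, and fell less after PSNL in members than in the other classes.

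Adh1 was lower in the interaction, at -1.65 ± 0.31 (SE), adjusted p = 0.0323, with the chemokine class at 267 CPM in sham and 268 in PSNL of batch 1 and 184 and 109 in batch 2. For Igfbp3, an IGF-binding protein, the interaction was -1.71 ± 0.25 (SE), adjusted p = 0.000214. Igfbp3 in members stood at 879 CPM in sham and 629 in PSNL of batch 1 and 496 and 685 in batch 2, up in one batch and down in the other, whereas the endoneurial class stood at 0 CPM in sham and 132 in PSNL of batch 1 and 3.63 and 77.5 in batch 2. Fgl2 (-1.55 ± 0.29 (SE), adjusted p = 0.0125) and complement C4b (-1.52 ± 0.23 (SE), adjusted p = 0.000689) likewise showed PSNL levels above sham in the endoneurial class in both batches, and C4b shares reads with its near-identical copy C4a, so its counts are uncertain. In members C4b stood at 1005 CPM in sham and 860.1 in PSNL of batch 1 and 732 and 292 in batch 2. Of 14 alternatives, the call was lost in 8 for Mmp14, 6 each for Prss23 and mt-Ts2, 5 for Adh1, 4 for Fgl2 and 1 each for Igfbp3 and C4b. The interaction calls changed with each library left out: without sham of batch 1 they numbered 0 and 3, without PSNL of batch 1 they were 2 and 1, without sham of batch 2 they were 6 and 23, and without PSNL of batch 2 they were 2 and 1.

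**Figure D5:**
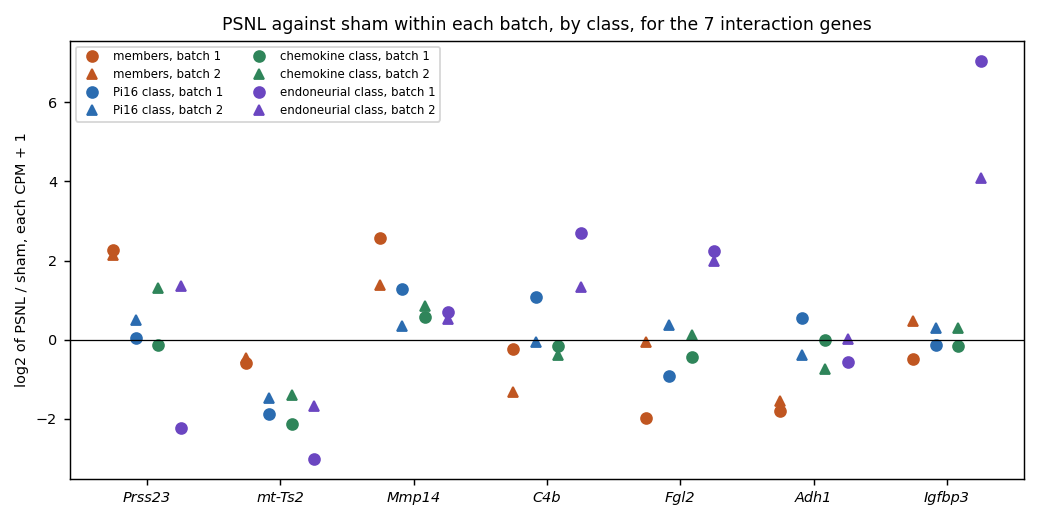
Log2 ratio of PSNL to sham (each CPM plus 1) within batch 1 (circles) and batch 2 (triangles), by class, for the 7 genes whose PSNL effect in members differed from the mean of the other classes. Prss23 and Mmp14 are highest in members (orange) in both batches, and Igfbp3, Fgl2 and C4b are highest in the endoneurial class (purple) in both.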

How the data were processed

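Single-cell suspensions of sciatic nerve were sorted and sequenced by the authors with 10X 3′ chemistry. Per the labels' processing notes, reads were quantified on GRCm38 with kallisto 0.46.2 and bustools 0.40.0, and Seurat 4.3 was used, and the authors deposited UMI counts per barcode and gene, not normalized and with all barcodes kept; the annotation release and counting strand are not given in the sources used here. Of 55421 gene identifiers, 55154 were matched to a symbol without their version suffix. Many of the genes named overlap another gene model, on the opposite strand (such as Prss23, Ccn2, Mfap4, 1500015O10Rik, Kcnma1, Ccdc3, Efhd1, Adh1, Penk, Adm, Pcolce2 and Col14a1) or on the same strand (such as Gm43343), and their counts may include reads of that gene. The members, gene lists and rules were chosen with earlier results of these data known.

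Counts were summed per library and class (at least 5 cells) and tested with edgeR 4.0.16 (R 4.3.3; TMM, filterByExpr, robust quasi-likelihood fit, Benjamini-Hochberg over all genes tested); class contrasts and the interaction held the library as a block, and PSNL against sham had no block. Named genes were the 12 higher and 12 lower with the largest of their smallest absolute log2 differences among those called in all 3 contrasts, up to 10 of each sign for PSNL against sham, up to 5 for the interaction, and genes of the lists. Some genes that these rules name are not reported here. Within-batch log2 ratios added 1 CPM. Intervals of shares are exact (Clopper-Pearson, 95%). On simulated counts with 200 genes changed 4-fold, the class test recovered 199 with 0 false calls among 10163 genes, PSNL against sham 194 with 16 false calls among 10399, and the interaction 189 with 8 among 10273. The simulated counts held no library or batch effect, and their dispersions came from a fit with the library term. Recovery on them therefore does not give the power of these tests on the real libraries, least of all for PSNL against sham. Deviations of same-batch libraries from their group means correlated at 0.345 (log2 of CPM + 10; with 2 libraries a group, both batches give the same value). Alternatives were DESeq2 1.42.0, its size factors, no filter on low counts, other thresholds for UMIs (500, 2000), class sums (2, 5) and mitochondrial share (5%), Scrublet calls left out, free RNA (barcodes of 10 to 100 UMIs) subtracted at 10%, thinning to 1000 UMIs, blocks and leaving out each library.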

Additional observations from a re-analysis of the deposited data

Results flagged for a closer look

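For 7 genes, PSNL had an effect in members that differed from the mean effect in the other 3 classes by the interaction test (log2, edgeR, Benjamini-Hochberg adjusted). The difference was 1.58 for Prss23, 1.52 for mt-Ts2, 1.07 for Mmp14, −1.71 for Igfbp3, −1.65 for Adh1, −1.55 for Fgl2 and −1.52 for C4b. The Igfbp3 value rests on the endoneurial class, which held 0 and 6 UMIs of Igfbp3 in the sham libraries and 35 and 98 in the PSNL libraries, from 95 and 280 cells after PSNL.

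In the PSNL library at 5 days, outside the comparisons at 2 months, 115 of 295 gate cells met the rule (39.0%, exact binomial 95% interval 33.4 to 44.8). This is 1 library with no sham library analysed here, so no test was made. Its members held Sfrp4 at 3043 CPM (exact Poisson 95% interval 2955 to 3134, counting error only) and Comp at 101 (85.8 to 119), under the lowest member library at 2 months for both genes. Both genes helped to choose these cells, so these levels are a description only. Postn stood at 2518 CPM (2438 to 2600.1) and Mmp14 at 709.9 (668 to 754), above every member library at 2 months. Fmod, at 144, lay within the range at 2 months, and Kdr, at 2.70 on 4 UMIs, lay below it. The median depth of these cells was 12050 UMIs, against library medians of 2517 to 5445.5 in members at 2 months. A cutoff of 3 raw UMIs is met at a lower CPM in deeper cells. The share of members and their levels of Sfrp4 and Comp are therefore not comparable between the 2 times.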

How the results depend on the processing

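Counts of genes called were the values most open to processing. Those higher or lower in members than in all 3 other classes, 223 and 71, became 122 and 30 with no replicate block (no library term) and 105 and 25 with cells thinned to 1000 UMIs, and leaving out 1 library gave 159 to 235 and 40 to 64. Thinning removes reads and leaves fewer genes to test. DESeq2 size factors shared 222 of the 223 higher calls and 69 of the 71 lower calls. Calls of PSNL against sham in members, 0 and 0, became 19 and 13 with the batch as a replicate block (the pairing comes from the labels), 4 and 1 with DESeq2 and 23 and 12 with no filter on low counts, and leaving out 1 library gave 1 to 85 and 0 to 104. Interaction calls, 3 higher and 4 lower, became 0 higher with DESeq2, 10 and 12 with no filter, 1 higher with cells of at least 500 UMIs, with a class sum of at least 2 or with free RNA subtracted, and 0 higher with a class sum of at least 5, and leaving out 1 library gave 0 to 6 and 1 to 23. The cause of these shifts was not tested. The mean PSNL minus sham share of members was above 0 in all 12 alternatives, from 1.29 to 6.19 points when 1 library was left out and from 2.00 to 5.58 otherwise. Within batch 1 alone the difference, 0.232 points, fell below 0 with cells of at least 2000 UMIs (−1.90), a class sum of at least 5 (−1.48), the rule applied to thinned cells (−0.849) or Scrublet calls left out (−0.127), whereas in batch 2 it was 5.61 to 9.16 under the alternatives. Among single named genes no alternative reversed a direction. Besides Adora2b, a class contrast lost its call for Clic6, Sytl2 and Efhd1 with thinned cells, Lepr and Gm43343 without PSNL of batch 1, and Sytl2 and Gm43343 without PSNL of batch 2. The doublet caller marked 33 of 10042 cells, too few for it to have worked, so doublets may remain. The sham library of batch 1 held the fewest members, 136. Genes near 0 in a class, such as Kdr and Slc38a4, were limited by depth. Kdr had values in only 9 alternatives of the class contrasts, against 16 for Fmod, and kept its calls in those 9.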
